A study of Mus musculus with 6 samples.

Results

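The genes described here are 26 members of the cholesterol synthesis and SREBP2 pathway, chosen by name from the 55401 genes of the deposited table. They comprise 19 enzymes, from Acat2 at the start of the mevalonate pathway to Dhcr7 near its end, 4 genes of the sterol-sensing machinery (Srebf2, Scap, Insig1 and Insig2), and Stard4, Mylip and Tmem97, which act in sterol transport and receptor turnover. All 26 were found, and all 26 passed the filter on low counts that left 18164 genes to test; other genes of the pathway were not among the members. RNA had been sequenced from mouse bone marrow-derived macrophages (BMDMs, cells grown out of bone marrow) that were induced with M-CSF, the macrophage growth factor. The groups were 3 libraries labelled Lamtor5 knockdown and 3 labelled WT. Lamtor5, also named HBXIP, is a subunit of Ragulator, the lysosomal complex that recruits mTORC1. The design text marks the mutant mice as HBXIPΔLysM, a name that points to Cre recombinase driven by the LysM (Lyz2) promoter, which is active in myeloid cells; strain, age and sex are not in the labels, and no label says whether replicate libraries stem from different animals or cultures. The p-values below therefore measure the spread between libraries, which may be technical.

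Cells make cholesterol from acetyl-CoA by way of mevalonate, the isoprenoid farnesyl diphosphate, squalene and lanosterol. SREBP2, the product of Srebf2, is a transcription factor held in the endoplasmic reticulum with its escort Scap and the retention proteins Insig1 and Insig2; when sterols are low, Scap carries it to the Golgi, where proteases release the part that enters the nucleus and activates genes of this pathway. Macrophages also take up cholesterol from lipoproteins and dead cells, and sterols taken up in this way are known to restrain SREBP2.

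SREBP2 is known to act at promoters beside the factors NF-Y and Sp1, so the promoter windows of the members were searched for their motifs on both strands. RefSeq windows on GRCm38.p6, which run from 250 bases before a transcript start to 50 bases after it, were found for 22 of the 26 members (28 windows); Fdps, Fdft1, Sqle and Stard4 had no entry. The NF-Y box CCAAT occurred in 20 of the 22 genes (90.9%), against 41.1% of 27025 genes with a window and 42.7% of the 11818 of these that were tested. The Sp1 box GGGCGG occurred in 20 of the 22 (90.9%), against 63.6% of the tested genes. The sterol regulatory element consensus TCACNCCAC occurred in 1 member, Hmgcs1, where it began at position -137 from the start, against 1.43% of the tested genes. Its shorter form CACNCCAC, searched after the first result was known and contained in every match to the longer one, occurred in 3 members (Acat2, Hmgcs1 and Insig1; 13.6%), against 7.59% of the tested genes. These matches describe the letters in the windows and not binding. The 250 bases before the start are shown 5′ to 3′ for 5 members. Hmgcs1 holds the full element, and Nsdhl and Ebp fell in the knockdown. Hmgcs1, Insig1 and Mylip did not pass the test, and Insig1 and Mylip had positive log2 fold changes. Capitals mark CCAAT (read as ATTGG from the other strand) and the 2 forms of the sterol regulatory element. The windows lie at chr13:119690101-119690350 (plus strand, Hmgcs1), chrX:72918271-72918520 (plus, Nsdhl), chrX:8193513-8193762 (minus, Ebp), chr5:28071162-28071411 (plus, Insig1) and chr13:45389492-45389741 (plus, Mylip).
Hmgcs1: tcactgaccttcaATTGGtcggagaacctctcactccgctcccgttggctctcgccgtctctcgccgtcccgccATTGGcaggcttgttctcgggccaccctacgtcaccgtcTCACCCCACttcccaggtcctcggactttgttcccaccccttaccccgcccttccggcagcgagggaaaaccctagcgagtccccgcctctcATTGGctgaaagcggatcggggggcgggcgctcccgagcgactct
Nsdhl: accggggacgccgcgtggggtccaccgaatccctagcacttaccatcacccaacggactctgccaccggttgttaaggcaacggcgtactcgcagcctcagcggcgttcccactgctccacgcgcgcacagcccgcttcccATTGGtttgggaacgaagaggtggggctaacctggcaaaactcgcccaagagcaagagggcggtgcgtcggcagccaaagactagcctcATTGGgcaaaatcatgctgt
Ebp: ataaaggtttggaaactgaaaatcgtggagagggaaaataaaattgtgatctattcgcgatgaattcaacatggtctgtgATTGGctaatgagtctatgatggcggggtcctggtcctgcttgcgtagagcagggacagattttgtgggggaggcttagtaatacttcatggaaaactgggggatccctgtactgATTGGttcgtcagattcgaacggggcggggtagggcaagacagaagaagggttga
Insig1: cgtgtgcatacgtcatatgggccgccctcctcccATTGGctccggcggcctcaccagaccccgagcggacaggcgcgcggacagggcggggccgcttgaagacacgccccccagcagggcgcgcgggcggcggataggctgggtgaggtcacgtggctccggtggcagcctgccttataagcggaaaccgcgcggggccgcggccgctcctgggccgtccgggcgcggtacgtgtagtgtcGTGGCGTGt
Mylip: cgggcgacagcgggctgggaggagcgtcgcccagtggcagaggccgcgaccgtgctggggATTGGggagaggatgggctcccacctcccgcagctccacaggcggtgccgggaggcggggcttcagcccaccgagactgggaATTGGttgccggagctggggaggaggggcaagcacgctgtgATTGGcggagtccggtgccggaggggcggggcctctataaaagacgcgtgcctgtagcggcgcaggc
Hmgcs1 holds 4 NF-Y boxes in its whole window, Nsdhl 4, Mylip 3, Ebp 2 and Insig1 1. The box was in 20 of the 22 genes with a window, so its presence says nothing about the direction of a difference.

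**Figure D1:**
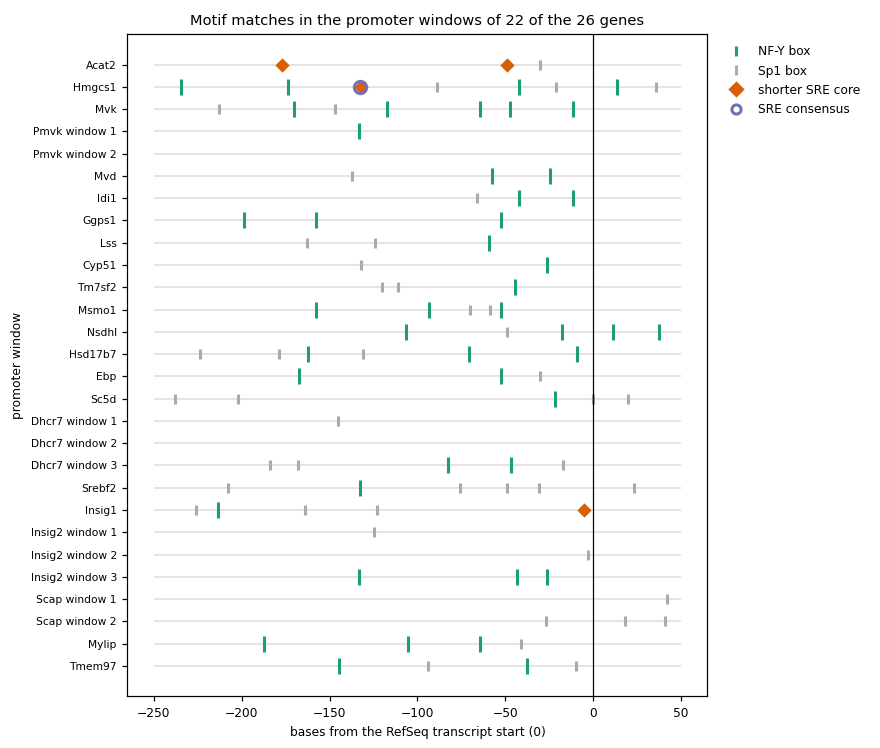
Matches to 4 motifs in the 28 promoter windows of 22 members, by distance in bases from the RefSeq transcript start (0), 1 row per window. Green bars are NF-Y boxes, grey bars Sp1 boxes, orange diamonds the shorter sterol regulatory element and the open circle the full element, which only the Hmgcs1 window holds; 20 of the 22 genes have a green bar.

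Each library held 26 to 27.99 M read pairs (M, 1e6). The totals of the estimated counts were 75.8 to 81.3 M in the knockdown and 82.5 to 83.2 M in WT. Members had from 509 to 18772 estimated counts in a library. Lamtor5 itself had 25.5, 27.1 and 24.8 FPKM in knockdown replicates 1 to 3 and 55.9, 54.5 and 56.2 FPKM in WT replicates 1 to 3, which is 46.5% of the WT mean. One library stood apart: Lyz2, the LysM locus, had 11356, 10650 and 73.6 FPKM in knockdown replicates 1 to 3, against 29379, 24743 and 22454 FPKM in WT. Results are therefore also given without knockdown replicate 3. Macrophage markers were present in every library. Csf1r had 160 to 223 FPKM in knockdown libraries and 347 to 541 FPKM in WT. Cd68 had 1273 to 1571 FPKM in knockdown libraries and 930 to 971 FPKM in WT. Of the 8 macrophage markers, 5 were called lower and only Cd68 was called higher (edgeR, adjusted p under 0.05). Beside Csf1r, the lower ones were Adgre1, Itgam, Cd14 and Fcgr1, with knockdown means at 51.0%, 52.7%, 41.7% and 22.3% of WT. The T cell genes Cd3d, Cd3e, Cd3g, Cd2 and Cd8a summed to at most 0.161 FPKM in knockdown libraries and 0.137 FPKM in WT. Xist had 23.7 to 26.5 FPKM in knockdown libraries and 24.9 to 38.4 FPKM in WT. Ddx3y, on chromosome Y, had 0 counts in every library except knockdown replicate 2, which had 13. Both groups thus had Xist RNA and almost none from Ddx3y. Nsdhl and Ebp are X-linked, and a part of X dosage in their values was not tested. In bulk RNA, fewer cells of a type and less RNA per cell cannot be told apart.

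Of the 26 members, 4 fell in the knockdown: the enzyme genes Fdft1, Nsdhl and Ebp and the sterol carrier gene Stard4. By edgeR 0 members rose, with 12 lower and 2 higher at an unadjusted p under 0.05, where 5484 of the 18164 genes tested had such a p in either direction. The log2 fold changes (knockdown over WT) ran from -0.68 for Fdft1 to 0.63 for Mylip, 19 of 26 were below 0, and the median was -0.30, beside 0.02 for all 18164 genes tested. Across the table edgeR's quasi-likelihood test at a Benjamini-Hochberg adjusted p of 0.05 called 6.46% of genes lower (1173) and 4.87% higher (885). In 11 members every knockdown library lay below every WT library, where 21.3% of all tested genes did so, and in 1 member, Mylip, every knockdown library lay above, where 16.3% of all tested genes did so. Summed over the 19 enzymes, the level was 155, 195 and 191 FPKM in knockdown replicates 1 to 3 and 201, 232 and 245 FPKM in WT replicates 1 to 3, so the groups did not overlap, and the knockdown mean was 79.9% of the WT mean. The 7 regulators and transport genes summed to 115 ± 7.02 FPKM in knockdown libraries and 117 ± 3.63 FPKM in WT libraries (SD, n = 3 each). In this sum opposite differences offset each other: 4 of the 7 log2 fold changes lay below 0 and 3 above. Mylip, on the upper side, averaged 31.8 FPKM in knockdown libraries and 21.2 FPKM in WT.

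The calls rested on few libraries. Leaving out knockdown replicates 1, 2 and 3 in turn, edgeR called 1 (Fdft1), 1 (Nsdhl) and 0 members lower. Of all tested genes it then called 164, 620 and 409 lower, against 1173 with all 6 libraries. Leaving out WT replicates 1, 2 and 3 in turn, edgeR called 4 (Fdft1, Nsdhl, Stard4 and Idi1), 0 and 0 members lower. Of all tested genes it then called 1389, 0 and 361 lower. These fits tested 18831 to 19052 genes. The loss of member calls thus came with fewer genes called lower in the whole table. For the 3 fits without a member called lower, the members lower at an unadjusted p under 0.05 numbered 11, 7 and 7. With the same libraries DESeq2 called 7, 4 and 6 members lower, beside 9.49%, 7.49% and 9.02% of all tested genes. There limma on log2(FPKM + 1) called 1, 0 and 1 members lower, beside 3.11%, 0% and 2.68% of all tested genes. Without WT replicate 2 edgeR called no gene of the whole table (4065 genes at an unadjusted p under 0.05, 2640 by DESeq2 and 0 by limma). Without knockdown replicate 3 the log2 fold changes were -0.61 for Fdft1, -0.61 for Nsdhl, -0.37 for Ebp and -0.44 for Stard4, with adjusted p of 0.0540, 0.0673, 0.113 and 0.119. With all 6 libraries DESeq2 called 8 members lower, adding Idi1, Fdps, Cyp51 and Srebf2, and 1 higher, Mylip. Of the 18164 genes tested, DESeq2 called 2240 lower (12.3%) and 1927 higher.

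**Figure D2:**
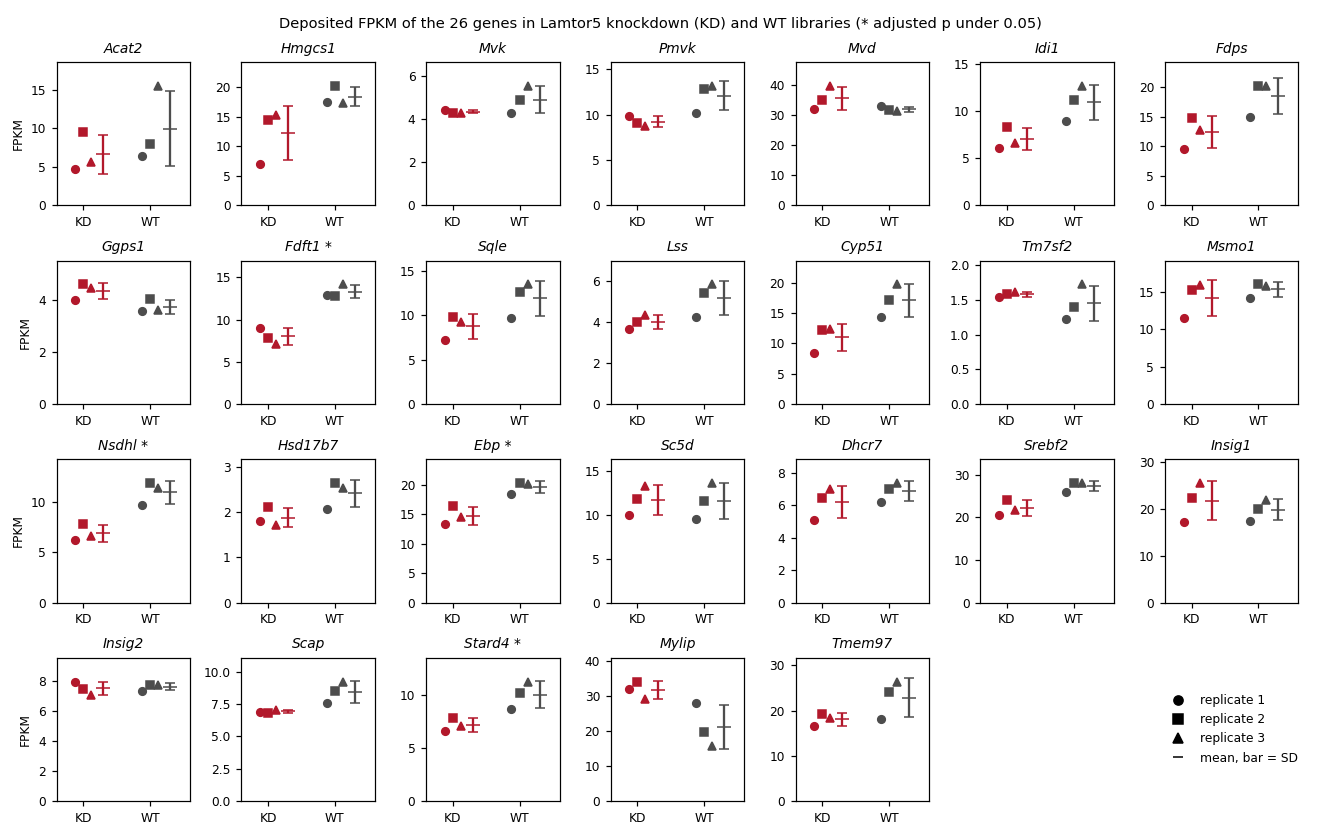
Deposited FPKM of each of the 26 members in Lamtor5 knockdown (KD, red, left) and WT (grey, right) libraries, with a separate axis from 0 for each gene; symbols are replicates 1 to 3, and the dash and bar are the mean and SD. Fdft1, Nsdhl, Ebp and Stard4 carry an asterisk for an adjusted p under 0.05, and Mylip is the member with all knockdown libraries above all WT libraries.

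**Figure D3:**
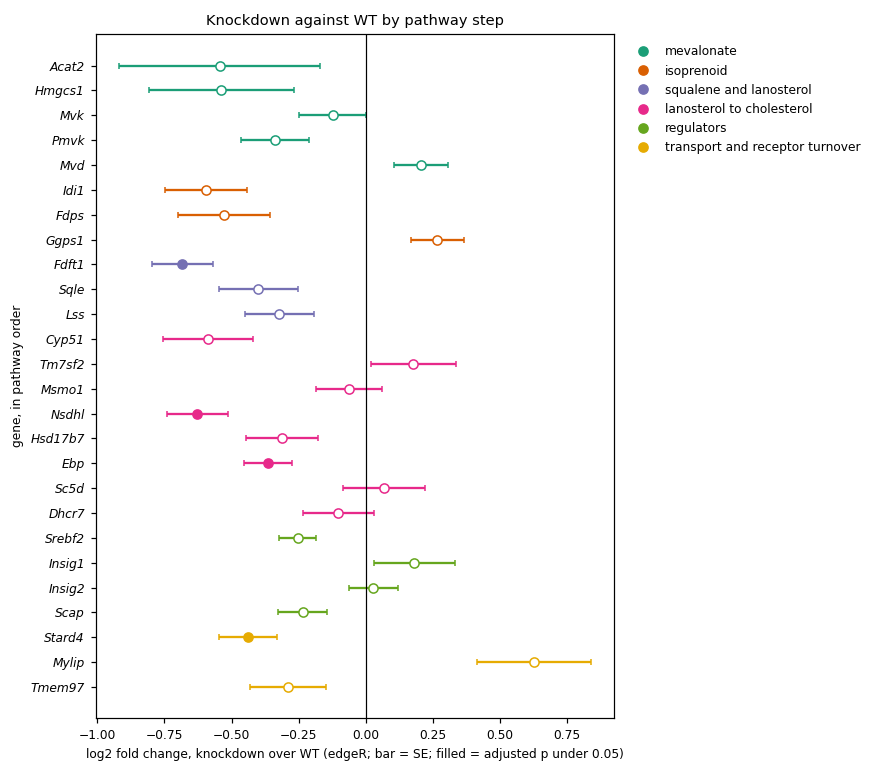
Log2 fold change of each member, knockdown over WT, from edgeR with its standard error, in pathway order from top to bottom and coloured by step; filled points have an adjusted p under 0.05. Points lie left of 0 for 19 members, and the filled ones are Fdft1 (-0.68), Nsdhl (-0.63), Stard4 (-0.44) and Ebp (-0.36).

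The mevalonate steps showed no call, and 4 of the 5 genes lay below 0. Acat2 encodes the cytosolic thiolase that joins the first acetyl units. It had 4.72, 9.47 and 5.63 FPKM in knockdown replicates 1 to 3, against 6.37, 7.95 and 15.5 FPKM in WT replicates 1 to 3, so the groups overlapped and WT replicate 3 alone was high. Its log2 fold change was -0.54 with a standard error (SE) of 0.374 (edgeR, adjusted p = 0.380). Hmgcs1 encodes the HMG-CoA synthase and is a classical SREBP2 target; its window holds the full element shown above. Its level was 6.95, 14.5 and 15.3 FPKM in knockdown libraries and 17.5, 20.2 and 17.4 FPKM in WT. All knockdown libraries lay below WT, but knockdown replicate 1 was far under the other two, and the log2 fold change of -0.54 (SE 0.270) had an adjusted p of 0.232; without knockdown replicate 1 it was -0.27. The mevalonate kinase gene Mvk had 4.30 to 4.44 FPKM in knockdown libraries and 4.29 to 5.55 FPKM in WT (-0.12, SE 0.124). Pmvk, the phosphomevalonate kinase gene, had 9.90, 9.07 and 8.73 FPKM in knockdown libraries and 10.2, 12.9 and 13.2 FPKM in WT, groups that did not overlap (-0.34, SE 0.126, adjusted p = 0.126). Mvd encodes the decarboxylase that ends this stretch, and it differed from its neighbours in sign. With 32.2, 35.1 and 39.8 FPKM in knockdown libraries and 33.1, 31.7 and 31.3 FPKM in WT it had the highest mean FPKM of the members in both groups (0.21, SE 0.101, adjusted p = 0.223).

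At the isoprenoid steps, Idi1 and Fdps lay lower in every knockdown library while Ggps1, on the branch away from sterols, lay on the other side of 0; none of the 3 passed the test. Idi1 encodes the isomerase that interconverts the basic isoprene units. It had 6.04, 8.32 and 6.65 FPKM in knockdown libraries and 8.98, 11.1 and 12.6 FPKM in WT, or 64.1% of the WT mean (log2 fold change -0.59, SE 0.152, edgeR adjusted p = 0.0518). It passed in DESeq2, and in edgeR without WT replicate 1. Fdps makes farnesyl diphosphate, the branch point to sterols and prenyl groups. Its levels were 9.50, 14.8 and 12.7 FPKM in knockdown libraries and 14.9, 20.2 and 20.2 FPKM in WT, where the highest knockdown and the lowest WT library nearly met (-0.53, SE 0.172, adjusted p = 0.0936). Ggps1 makes geranylgeranyl diphosphate for protein prenylation. It had 3.99, 4.59 and 4.45 FPKM in the knockdown against 3.56, 4.04 and 3.59 FPKM in WT, which overlapped (0.27, SE 0.0989, adjusted p = 0.126).

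The step that commits isoprenoids to sterols held the lowest fold change among the members. Fdft1, the squalene synthase gene (ENSMUSG00000021273, GRCm38 chromosome 14, 63145150 to 63179578, minus strand), fell to 9.05, 7.88 and 7.11 FPKM in knockdown replicates 1 to 3, against 13.0, 12.8 and 14.2 FPKM in WT replicates 1 to 3. Every knockdown library was below every WT library, and the mean was 60.1% of WT. The log2 fold change was -0.68 (SE 0.115, edgeR adjusted p = 0.0180). The gene's span shares 774 bases with the cathepsin gene Ctsb on the opposite strand. Ctsb had 2305 to 2770 FPKM in knockdown libraries and 1777 to 1889 FPKM in WT, so its difference ran in the other direction; whether counting used strand is not given in the sources used here, and a part of Ctsb in the Fdft1 values was not tested. Sqle, the squalene epoxidase gene and a rate-limiting step of sterol synthesis, had 7.22, 9.83 and 9.23 FPKM in knockdown libraries and 9.74, 12.6 and 13.5 FPKM in WT. Only WT replicate 1 fell within the knockdown range (-0.40, SE 0.147, adjusted p = 0.124). Lss, which closes the sterol ring to lanosterol, had 3.66, 3.98 and 4.35 FPKM in knockdown libraries and 4.27, 5.42 and 5.84 FPKM in WT, with the same overlap at WT replicate 1 (-0.32, SE 0.127, adjusted p = 0.145). Without WT replicate 1, DESeq2 and limma each called both Sqle and Lss lower, whereas edgeR did not. Sqle and Lss each passed in only these 2 of 25 alternatives.

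Among the 8 enzymes that convert lanosterol towards cholesterol, 2 fell and 6 did not pass. Nsdhl encodes a dehydrogenase that helps to strip methyl groups from lanosterol (ENSMUSG00000031349, chromosome X, 72918557 to 72958514, plus strand). It fell to 6.17, 7.78 and 6.56 FPKM in the knockdown, against 9.63, 11.8 and 11.3 FPKM in WT, with no overlap and 62.6% of the WT mean (log2 fold change -0.63, SE 0.113, edgeR adjusted p = 0.0211). Ebp, the gene of the sterol isomerase that shifts a ring double bond (ENSMUSG00000031168, chromosome X, 8185329 to 8193512, minus strand), fell to 13.3, 16.3 and 14.5 FPKM in the knockdown, against 18.4, 20.3 and 20.1 FPKM in WT. The groups did not overlap, at 75.2% of the WT mean (-0.36, SE 0.0886, adjusted p = 0.0453). The Ebp call was close to the threshold and was lost, among others, without a filter on low counts (adjusted p = 0.0700). Cyp51, the lanosterol demethylase gene, was close to Nsdhl in fold change but had a larger SE. Its 8.46, 12.2 and 12.4 FPKM in the knockdown lay under the 14.4, 17.2 and 19.8 FPKM in WT (-0.59, SE 0.169, adjusted p = 0.0695). Hsd17b7, a partner of Nsdhl in demethylation, was a low-level gene with 1.81, 2.13 and 1.72 FPKM in knockdown libraries and 2.08, 2.65 and 2.54 FPKM in WT (-0.31, SE 0.134, adjusted p = 0.171).

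The other enzymes of this stretch lay near 0. Msmo1, the methylsterol monooxygenase gene that acts before Nsdhl, had 11.5, 15.2 and 15.9 FPKM in knockdown libraries and 14.2, 16.0 and 15.8 FPKM in WT; apart from knockdown replicate 1 the libraries were alike (log2 fold change -0.06, SE 0.123, edgeR adjusted p = 0.777). Sc5d, the sterol desaturase gene, had 9.997, 11.9 and 13.3 FPKM in knockdown libraries and 9.52, 11.6 and 13.7 FPKM in WT, ranges that coincided (0.07, SE 0.154). Dhcr7, the gene of a reductase that yields cholesterol in the last step of one route, had 5.08 to 7.01 FPKM in knockdown libraries and 6.18 to 7.38 FPKM in WT (-0.10, SE 0.131). Tm7sf2, one of the pair of sterol reductases that act after Cyp51, had the lowest WT level of the members, with 1.55 to 1.62 FPKM in knockdown libraries and 1.23 to 1.72 FPKM in WT (0.18, SE 0.159). For these 4 genes, a missed threshold does not show that the groups did not differ.

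None of the 4 sterol-sensing genes passed the test. Srebf2, the gene of SREBP2 itself (chromosome 15, 82147181 to 82205379, plus strand), had 20.7, 24.2 and 21.8 FPKM in knockdown libraries and 26.01, 28.1 and 28.1 FPKM in WT. These groups did not overlap, with the knockdown mean at 81.1% of WT (log2 fold change -0.25, SE 0.0700, edgeR adjusted p = 0.0622, and 0.0120 in DESeq2). Scap, the escort, had 6.91, 6.79 and 7.06 FPKM in knockdown libraries and 7.55, 8.53 and 9.23 FPKM in WT, again without overlap (-0.24, SE 0.0905, adjusted p = 0.136). The retention genes showed another pattern. Insig1 is itself a sensitive SREBP2 target; it had 17.3, 22.3 and 25.5 FPKM in knockdown libraries and 17.5, 20.0 and 21.98 FPKM in WT, so the groups overlapped widely (0.18, SE 0.151, adjusted p = 0.471). Insig2, the paralog that is less dependent on SREBP2, had 7.97, 7.47 and 7.09 FPKM in knockdown libraries and 7.37, 7.75 and 7.76 FPKM in WT (0.03, SE 0.0911). The fold changes of Hmgcs1 and Insig1, 2 textbook targets of SREBP2, thus differed in sign; the difference between them was not tested. The microRNA gene Mir33, which lies inside Srebf2, was listed with 0 counts in each of the 6 libraries. Its entry spans 69 bases and only reads of at least 100 bases were kept, so this does not show that the microRNA was absent.

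Of the 3 genes of sterol transport and receptor turnover, 1 fell. Stard4, a cytosolic sterol carrier gene that responds to SREBP2 (ENSMUSG00000024378, chromosome 18, 33199355 to 33213862, minus strand), fell to 6.58, 7.86 and 7.03 FPKM in the knockdown, against 8.68, 10.2 and 11.3 FPKM in WT. The groups did not overlap, at 71.4% of the WT mean (log2 fold change -0.44, SE 0.107, edgeR adjusted p = 0.0464); the call was near the threshold, and the adjusted p was 0.0750 without a filter on low counts. Tmem97, a membrane protein gene induced when sterols are low, had 16.6, 19.3 and 18.3 FPKM in knockdown libraries and 18.1, 24.0 and 26.4 FPKM in WT, where WT replicate 1 lay inside the knockdown range (-0.29, SE 0.140, adjusted p = 0.217). Mylip encodes the ubiquitin ligase, also called IDOL, that marks lipoprotein receptors for degradation and it is a target of the sterol-activated nuclear receptor LXR. It was the one member with every knockdown library above WT: 32.1, 34.1 and 29.1 FPKM in the knockdown, against 28.1, 19.8 and 15.7 FPKM in WT. WT replicate 1 was close to the lowest knockdown library, and the log2 fold change of 0.63 (SE 0.213) had an adjusted p of 0.102. Without WT replicate 1 it was 0.90 with an adjusted p of 0.0151. In edgeR it was 0.57 without WT replicate 2 (adjusted p = 0.270) and 0.44 without WT replicate 3 (adjusted p = 0.203).

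The libraries within a group differed along the pathway. WT replicate 1 was the lowest WT library in 22 of 26 members, against 43.6% of all tested genes, and knockdown replicate 1 was the lowest knockdown library in 19 of 26, against 38.1% of all tested genes. Members measured in one library are not independent of each other, so these counts are a description. The 15 genes of dividing cells showed a like pattern in WT: they summed to 40.5, 71.7 and 31.2 FPKM in knockdown replicates 1 to 3 and to 174, 322 and 415 FPKM in WT replicates 1 to 3. Of these 15, 14 fell, where edgeR called 6.46% of all tested genes lower. The median log2 fold change of the 15 genes was -2.68. Their part in the sterol results was not tested. Without WT replicate 1 the median of the members was -0.40, and without WT replicate 3 it was -0.21.

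**Figure D4:**
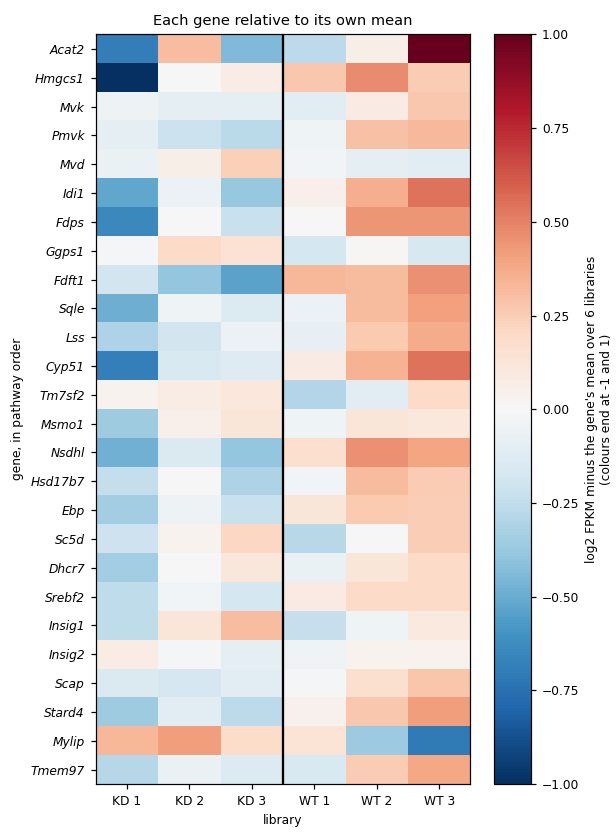
Log2 FPKM of each member minus its own mean over the 6 libraries, with knockdown (KD) libraries left of the line and WT libraries right of it; genes run in pathway order and colours end at -1 and 1. WT 1 is paler than WT 2 and WT 3 for most enzymes, and KD 1 is the lowest knockdown library in 19 of 26 rows. In the Mylip row, WT 2 and WT 3 lie below the gene's mean, and WT 1 lies above it with the knockdown libraries.

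Markers of other cell types were summed in each library. Over all tested genes, edgeR called 6.46% lower and 4.87% higher. The 9 mast cell, basophil and eosinophil genes summed to 15.9, 14.5 and 6.88 FPKM in knockdown libraries and 4.85, 3.03 and 2.37 FPKM in WT, with 2 higher and 6 at or under 1 FPKM in each library. The 10 myeloid progenitor genes summed to 31.3, 21.1 and 30.7 FPKM in knockdown libraries and 13.3, 12.7 and 13.0 FPKM in WT, with 2 higher. Of the 8 macrophage markers 5 fell and 1 rose. The 5 B cell genes summed to 1.10 to 5.46 FPKM in knockdown libraries and 5.69 to 8.19 FPKM in WT, the 5 fibroblast genes to 0.661 to 5.19 FPKM in knockdown libraries and 1.57 to 5.65 FPKM in WT, and the 6 neutrophil genes to 69.6 to 117 FPKM in knockdown libraries and 97.4 to 148 FPKM in WT; of these 16 genes 1 fell, the neutrophil granule gene Ltf. The part of these cells in the sterol results was not tested.

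Genes of related lists were compared in the same fit, in which 11.3% of all tested genes were called in either direction. Of 3 other genes of sterol enzymes, 1 fell, with a median log2 fold change of -0.45. Lbr, the lamin B receptor, which is the other sterol reductase beside Tm7sf2 and also a nuclear envelope protein, fell to 3.23, 4.88 and 2.38 FPKM in the knockdown, against 7.90, 10.9 and 12.9 FPKM in WT (-1.56, SE 0.275, edgeR adjusted p = 0.0203). It was further below 0 than any of the 26 members. Of 10 genes of SREBP processing and sterol-regulated degradation, 1 fell and 1 rose, with a median of -0.05. Erlin1, an endoplasmic reticulum protein gene linked to Insig and Scap, averaged 6.75 ± 0.190 FPKM in knockdown libraries and 10.7 ± 1.75 FPKM in WT libraries (SD, n = 3 each; -0.62, adjusted p = 0.0275). Pgrmc1, a heme-binding partner of sterol demethylation, averaged 28.6 ± 1.55 FPKM in knockdown libraries and 23.3 ± 0.915 FPKM in WT (0.34, adjusted p = 0.0418).

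Genes that use or store the products were counted beside the 11.3% of all tested genes called in either direction. Of 12 genes of isoprenoid use, from dolichol synthesis to protein prenylation, 1 rose, with a median of -0.07 over the list: Nus1, a subunit of the dolichol-making prenyltransferase, averaged 27.5 ± 1.05 FPKM in knockdown libraries and 22.2 ± 0.982 FPKM in WT (log2 fold change 0.36, edgeR adjusted p = 0.0335). Of 11 genes of sterol storage and transport, 1 rose and 1 fell. Soat1, the enzyme that esterifies cholesterol for storage in macrophages, rose to 69.6, 71.8 and 79.5 FPKM in the knockdown, against 53.0, 50.8 and 46.0 FPKM in WT (0.61, SE 0.0990, adjusted p = 0.0170). Scarb1, the scavenger receptor for high-density lipoprotein, fell to 13.9, 15.3 and 14.2 FPKM in the knockdown, against 19.9, 21.9 and 21.1 FPKM in WT (-0.49, SE 0.0647, adjusted p = 0.0120). Npc2, a lysosomal cholesterol carrier, did not pass (0.48, adjusted p = 0.0649), nor did the cholesterol ester hydrolase gene Nceh1 (0.32, adjusted p = 0.0528). The 8 LXR genes and targets had a median of 0.02 and a smallest edgeR adjusted p of 0.0541. In 3 every knockdown library lay above WT, where 16.3% of all tested genes did so. In 3 every knockdown library lay below, where 21.3% of all tested genes did so. Srebf1, the sister gene of Srebf2, averaged 11.01 ± 1.77 FPKM in knockdown libraries and 16.5 ± 2.22 FPKM in WT (-0.54), and Nr1h3, the LXR alpha gene, averaged 7.17 ± 0.576 FPKM in knockdown libraries and 5.26 ± 0.820 FPKM in WT (0.49, adjusted p = 0.0868).

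**Figure D5:**
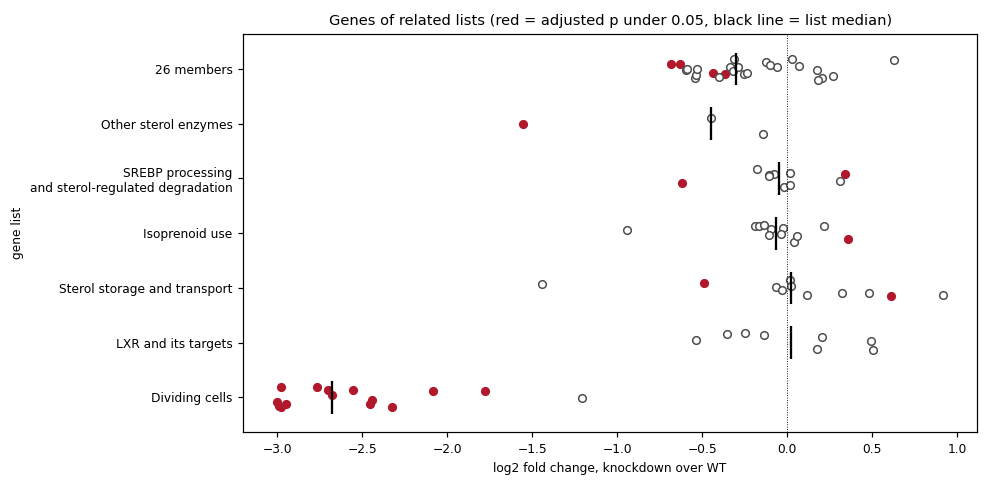
Log2 fold change, knockdown over WT, of the 26 members (top row) and of genes of 6 related lists; each point is a gene, red points have an adjusted p under 0.05 in edgeR, and black lines are list medians. The members centre at -0.30, other sterol enzymes at -0.45, the other sterol lists near 0 and the dividing-cell genes at -2.68; vertical scatter within a row has no meaning.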

How the data were processed

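The members and gene lists were chosen with earlier results of these data known. Reads were trimmed with cutadapt 1.9 (overlap of at least 5, reads of at least 100 bases), per the file headers. The submitters' processing notes name the genome GRCm38 (mm10). Neither aligner nor counting program is stated in the sources used here. The authors deposited 1 table with an estimated count and an FPKM value per gene and library. The estimated counts made by the authors are whole numbers but sum to 2.91 to 2.99 per read pair sequenced, so no binomial interval was made. The authors' FPKM values are printed as mean ± SD, n = 3.

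The estimated counts were tested with edgeR 4.0.16 (R 4.3.3): filterByExpr with a minimum count of 10, TMM, quasi-likelihood test of knockdown against WT, Benjamini-Hochberg adjustment over 18164 genes, threshold 0.05. The SE is the fold change divided by the square root of F. The fit was tested on simulated data. Alternatives were RLE factors, DESeq2 1.42.0, no count filter, limma 3.58.1 on log2(FPKM + 1) or log2(FPKM + 0.1) with a mean of at least 1 FPKM or no filter, a replicate block, and leaving out each library; leaving out libraries in DESeq2 and limma was added after seeing the data. Every member is named, and up to 4 genes with the smallest p of each related list. Genes of the cell type marker lists are named without this rule. Lyz2, Ctsb, Xist, Ddx3y, Mir33, Acat3 and Idi2 were chosen after their values were seen. Faxdc2 and Spring1 were not analysed here, and 1 gene of the list of other sterol enzymes is not reported here and is left out of its count and median. Promoter sequences are from RefSeq (GRCm38.p6).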

Additional observations from a re-analysis of the deposited data

How the results depend on the processing

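Each call among the members rested on 3 libraries a group and, for Ebp and Stard4, lay near the threshold, and estimated counts do not give the depth behind a value. Members called lower numbered 4, and 8 in DESeq2, 2 in edgeR without a count filter (695 genes lower and 510 higher in all) and 1 in limma without an FPKM filter (444 and 371). Members called higher numbered 0, and 1 in DESeq2 (2240 genes lower and 1927 higher in all). Leaving out 1 library gave 0 to 4 members lower and 0 to 1 higher in edgeR, with 0 to 1389 genes lower and 0 to 945 higher in all; 4 to 14 and 0 to 1 in DESeq2, with 1422 to 2467 and 1218 to 2271 genes; and 0 to 11 and 0 to 1 in limma, with 0 to 1627 and 0 to 859 genes. No called member changed sign under any of these alternatives. Same-numbered libraries of the groups had deviations that correlated at 0.05, 0.06 and -0.05 over all tested genes. No label says whether they share a culture or a day, and these correlations cannot decide it. The replicate block gave 3 members lower and none higher (424 genes lower and 304 higher in all). Of the 4 calls only Nsdhl passed with it (adjusted p = 0.0471), with 0.0528 for Fdft1, 0.0818 for Stard4 and 0.0908 for Ebp, and Fdps (0.0488) and Cyp51 (0.0462) passed in addition. Not every library correlated best with its own number.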

Other observations

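Acat3, a close copy of Acat2 beside it on chromosome 17, had 0.391, 0.341 and 0.665 FPKM in the knockdown and 0.794, 1.22 and 1.12 FPKM in WT; how the counting treated reads that match both genes is not given in the sources used here, so both values are uncertain. Idi2, the paralog of Idi1, was listed with 0 counts in each of the 6 libraries.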
